A study of Danio rerio with 21 samples.

Results

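ZKO larvae, the -/- offspring of +/- mothers that lack functional *pomgnt2* of their own, were compared with Het larvae, the +/- offspring of +/- mothers, at 5 dpf (days post-fertilization). The comparison used 6 of the 21 RNA-seq samples of the series, chosen by their labels: 3 ZKO pools and 3 Het pools. Each pool held 4 to 6 whole zebrafish larvae of the EK strain, sorted by genotype while alive, and all 5 dpf pools carried the same batch label. The mutant line carries CRISPR-Cas9 frameshifts in both coding exons of *pomgnt2*. Both groups came from Het crosses, so each started from an egg of a mother with a functional copy, and their labels differed only in the larva's own genotype. For reference, 3 WT pools (+/+, +/- mothers), 3 MZKO pools (-/-, -/- mothers) and 3 MHet pools (+/-, -/- mothers) of the same age were used. Nothing in the sources used here says whether the pools of a group came from separate clutches, so p-values measure the spread between pools.

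Pomgnt2 is an enzyme of the endoplasmic reticulum that adds N-acetylglucosamine to O-linked mannose on α-dystroglycan. This step starts the branch on which other enzymes build matriglycan, the sugar polymer through which dystroglycan at the cell surface binds laminin in the basement membrane. In humans, loss of this pathway causes dystroglycanopathies, muscular dystrophies that can also affect brain and eye. Zebrafish eggs are loaded with maternal mRNA and protein before the embryo transcribes its own genome, and a larva of a +/- mother can draw on such a supply.

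Total counts on genes were 17826389, 19758941 and 19594647 in the ZKO pools, against 19818321, 18931315 and 20018975 in the Het pools. A count of 3, taken as the detection floor, corresponded to 0.151 to 0.175 CPM (counts scaled to a common library size after TMM normalization), which covers counting error only. Between pools of one group the chi-square per gene was 6.69 to 11.5, above the value of 1 that counting error alone gives. Along the first principal component of the 15 pools, with 29.0% of the variance, all ZKO, Het and WT pools lay on one side and all MZKO and MHet pools on the other. Along the second, with 11.2% of the variance, ZKO pool 1 stood apart at -44.6, against -14.7 and -16.8 in the other ZKO pools and -3.33 to 11.0 in the Het pools. The WT pools spread more widely along it, at 54.4, 30.9 and -2.5. Lens, photoreceptor, neuron and skeletal muscle marker sums overlapped between ZKO and Het pools.

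The *pomgnt2* transcript itself did not separate the groups. Its level was 18.0, 18.0 and 20.0 CPM in ZKO pools, against 17.0, 18.0 and 17.5 CPM in Het pools. The pools overlapped, and the log2 fold change was 0.09 (SE 0.11, adjusted p = 0.913, edgeR quasi-likelihood test with Benjamini-Hochberg adjustment). The mutant alleles are frameshifts, so transcript counts do not check the genotype labels. In the reference groups it was at 16.9 to 18.5 CPM in WT, 18.8 to 19.1 CPM in MZKO and 14.4 to 18.1 CPM in MHet pools.

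None of the 19 genes of the O-mannosyl glycan pathway was called (adjusted p under 0.01 and absolute log2 fold change over 0.7). ZKO had higher values in 14 and lower values in 5 of them. Their median log2 fold change was 0.09, beside 0.01 over all genes tested. In 3 of the 19, every ZKO pool lay above every Het pool, where 5.71% of all genes tested did. *dpm3*, a subunit of the synthase that makes the mannose donor, was at 10.9, 13.1 and 10.6 CPM in ZKO pools, against 7.73, 8.43 and 9.40 CPM in Het pools (log2 fold change 0.43, SE 0.16, adjusted p = 0.611). *fktn*, fukutin, which adds ribitol phosphate to the glycan, was at 9.16, 9.70 and 8.25 CPM in ZKO pools, against 6.52, 7.08 and 6.94 CPM in Het pools (log2 fold change 0.40, SE 0.17, adjusted p = 0.657). The third was *fkrp*, which adds the next ribitol phosphate, with 11.4, 10.8 and 10.7 CPM in ZKO pools, against 9.21, 9.62 and 8.5 CPM in Het pools. All 3 differences were small, and none passed the test. *dag1*, which encodes dystroglycan, was at 82.5, 86.1 and 92.5 CPM in ZKO pools, against 84.0, 86.3 and 84.7 CPM in Het pools, with overlapping pools and a log2 fold change of 0.03 (SE 0.07). The mannosyltransferases *pomt1* and *pomt2*, the branch enzyme *pomgnt1*, the kinase *pomk*, and *large2*, which polymerizes matriglycan, had log2 fold changes of 0.12, -0.02, 0.02, -0.19 and 0.09. The summed level of the 19 genes was 362, 368 and 367 CPM in ZKO pools, against 342, 353 and 351 CPM in Het pools, without overlap (ratio 1.05, two-sided exact permutation test, p = 0.1).

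The protein partners of dystroglycan did not separate ZKO from Het either. Of 18 genes of the dystrophin complex, 8 were higher and 10 lower, none without overlap of the pools, and the median log2 fold change was -0.01. *sgca*, which encodes α-sarcoglycan of the muscle membrane, had the smallest p of the list, at 36.7, 32.7 and 38.1 CPM in ZKO pools and 35.1, 30.5 and 32.3 CPM in Het pools. *nos1*, the neuronal nitric oxide synthase anchored by the complex, was at 10.4, 11.0 and 12.4 CPM in ZKO pools and 11.6, 13.8 and 12.7 CPM in Het pools. Of 13 laminin genes, the extracellular ligands, 6 were higher and 7 lower. *lama2*, the laminin chain of muscle basement membrane, was at 14.6, 22.4 and 30.6 CPM in ZKO pools and 28.1, 26.1 and 27.2 CPM in Het pools, with ZKO pool 1 lowest and ZKO pool 3 highest of all 6.

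Across the 24846 genes tested of 36351 in the table, edgeR called 0 DEGs (differentially expressed genes) in ZKO against Het, 0% of the genes, in the fit of the 15 pools of 5 dpf. The smallest adjusted p was 0.101. At an unadjusted p under 0.05 there were 1781 genes (7.17%), 781 higher in ZKO (3.14%) and 1000 lower (4.02%). The count differed between sets of pools and tools, and every gene called by any of them was lower in ZKO. DESeq2 on the same 15 pools called 16 genes lower and 0 higher (0.068% of the genes it tested). edgeR on only the 6 ZKO and Het pools called 51 genes lower and 0 higher (0.216%), and 9 of the 16 genes of DESeq2 were among these 51. A fit without the WT pools, added after the data were examined, called 7 genes lower, all of them among the 51. By contrast, edgeR on the 9 pools of +/- mothers called 0 genes. It also called 0 with all pools of the series, with DESeq2 size factors and with other filters on low counts. In the fit of 9 pools, adjusted p across the 51 genes ranged from 0.0385 for *socs3a* to 0.936, as for *f2*. It was 0.907 for both *c3a.1* and *cp*, and 0.276 for *myl4*. Genes are therefore described below by their values in each pool, and called genes are named with the fit that called them. The median standard error of a log2 fold change was 0.17.

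Across gene lists, the ZKO pools had a lower level than the Het pools of genes that the liver expresses for secretion into blood. The 4 lists formed were of complement, coagulation, apolipoprotein, and other plasma protein and liver enzyme genes. Of their 116 genes tested, ZKO was below Het in 103, and the median log2 fold change was -0.68. In 76 of the 116 every ZKO pool lay below every Het pool, where 6.39% of all genes did, and in 2 every ZKO pool lay above. Genes of 1 tissue can vary together between pools, so the 116 genes are not independent observations. All gene lists, here and below, were chosen with earlier results of these data known. The study reports complement, clot formation and amino acid networks among genes lower in ZKO than in WT. That comparison shares these ZKO pools. The excess of lower genes on such lists therefore describes these pools and is not an independent test. For every count without overlap given below, the share over all genes tested was 6.39% for lower and 5.71% for higher genes. The fit of 15 pools called none of the 116 genes, and 45 had an unadjusted p under 0.05 and were lower. Of the 51 genes called in the fit of 6 pools, 30 were on these 4 lists. In whole larvae, fewer liver cells and less RNA per liver cell cannot be told apart, here and for the other tissues below.

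Summed over 9 liver markers, the level was 1777, 1970 and 1872 CPM in ZKO pools, against 3107, 3445 and 2775 CPM in Het pools. All 3 ZKO pools lay below all 3 Het pools, with a ratio of the means of 0.602 (p = 0.1 in an exact permutation test, two-sided, where 3 against 3 pools allow no smaller p). WT and MZKO pools varied more, and MHet pools less. WT pools had 5891, 4410 and 2600 CPM, MZKO pools 2439, 3422 and 1860 CPM, and MHet pools 3291, 3315 and 3190 CPM, so WT pool 3 lay below every Het pool. All 9 markers were detected in the ZKO and Het pools. Markers such as *tfa*, *cp*, *serpina1*, *apoa2*, *fgb* and *fgg* are also members of the liver lists, so this sum is not separate from those lists. The part of these marker levels in the gene differences below was not tested.

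**Figure D1:**
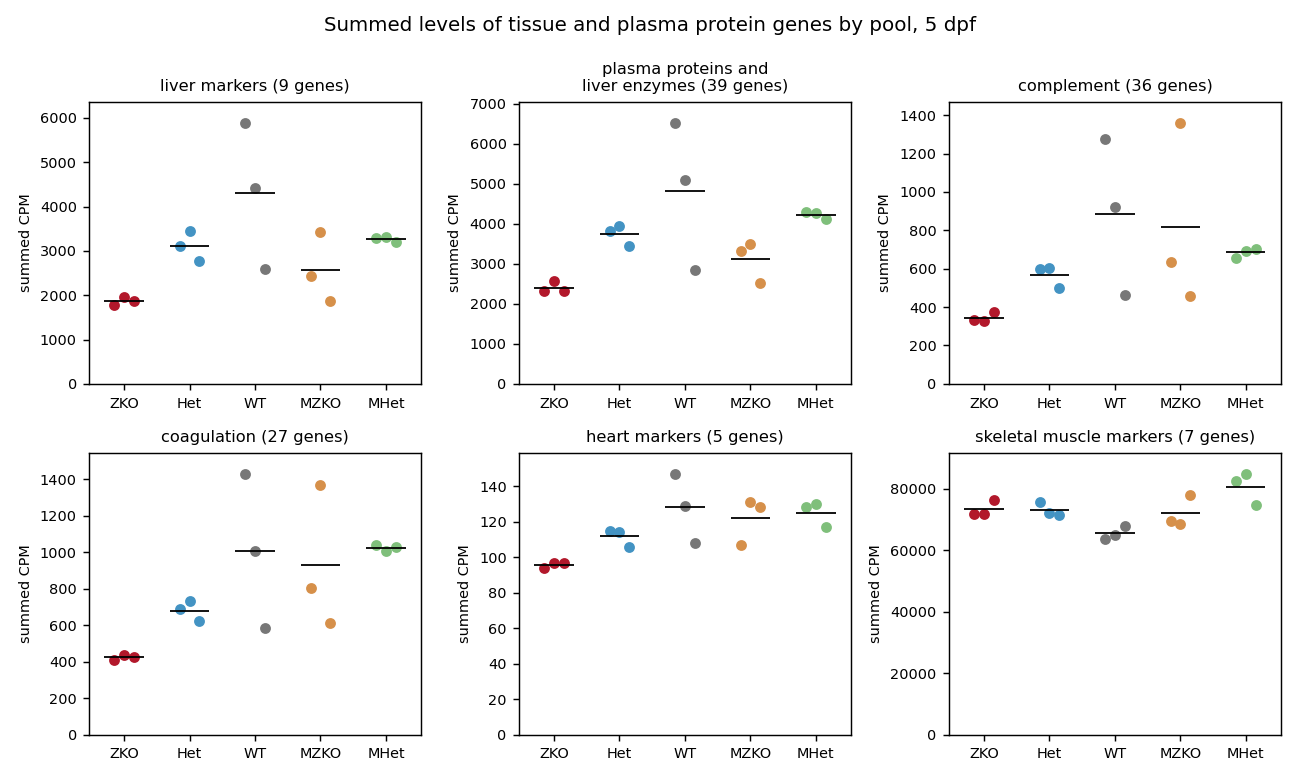
Summed CPM per pool (y axis) of liver markers, 4 other gene groups and skeletal muscle markers in ZKO, Het, WT, MZKO and MHet pools at 5 dpf (x axis), with points for pools and a line for the mean of 3 pools. ZKO pools sit below Het pools in the liver, plasma protein, complement, coagulation and heart panels, at 1777 to 1970 against 2775 to 3445 CPM for liver markers, and WT and MZKO pools spread widely in the same panels.

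Of 34 complement genes, which encode the serum cascade that opsonizes and lyses microbes, 28 were lower, 18 of them without overlap, and the median log2 fold change was -0.74. *c3a.1*, one of the tandem copies of complement C3, was at 29.8, 34.7 and 38.3 CPM in ZKO pools, against 79.0, 79.9 and 68.8 CPM in Het pools (log2 fold change -1.15, SE 0.55, adjusted p = 0.709). The 2 groups were far apart beside their own spread, whereas WT pools had 176, 133 and 53.2 CPM and MZKO pools 102, 291 and 61.6 CPM, values that enter the spread of the 15-pool fit. *c5*, which starts the lytic complex, was at 8.29, 7.71 and 8.04 CPM in ZKO pools, against 18.5, 21.0 and 15.6 CPM in Het pools (log2 fold change -1.20, SE 0.49, adjusted p = 0.664). *cfb*, factor B of the alternative pathway, was at 10.4, 10.8 and 12.9 CPM in ZKO pools, against 27.9, 25.6 and 20.5 CPM in Het pools (log2 fold change -1.11, SE 0.56, adjusted p = 0.727). These 3 genes were among the 51 called in the fit of 6 pools, as was *c8g* of the lytic complex, which had the smallest p of the list in the 15-pool fit, with 7.24, 6.03 and 7.43 CPM in ZKO pools and 15.0, 12.8 and 11.4 CPM in Het pools (log2 fold change -0.92, SE 0.28, adjusted p = 0.5). *cfhl1*, a factor H-like gene near the detection floor, was at 0.292, 0.357 and 0.205 CPM in ZKO pools and 0.999, 0.648 and 1.16 CPM in Het pools. Reads of the near-identical C3 copies may be split between them in counting, so single copies are less certain than the sum over the list, which was 331, 328 and 374 CPM in ZKO pools and 601, 602 and 501 CPM in Het pools.

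Of 25 coagulation genes, 23 were lower, 18 without overlap and none the other way, with a median log2 fold change of -0.75. *f7*, coagulation factor VII, had the smallest p of the list, at 6.19, 6.79 and 6.56 CPM in ZKO pools, against 11.4, 12.4 and 10.1 CPM in Het pools (log2 fold change -0.79, SE 0.21, adjusted p = 0.349). *f2*, prothrombin, was at 23.6, 20.1 and 27.5 CPM in ZKO pools, against 40.4, 44.5 and 34.4 CPM in Het pools. The fibrinogen chains had similar differences: *fgb* was at 40.1, 46.4 and 43.8 CPM in ZKO pools and 72.3, 93.3 and 70.8 CPM in Het pools, and *fgg* at 31.3, 33.5 and 38.0 CPM in ZKO pools and 65.6, 74.7 and 58.0 CPM in Het pools. *plg*, plasminogen, the precursor of the protease that dissolves fibrin, was at 36.2, 34.8 and 39.9 CPM in ZKO pools and 65.8, 62.5 and 55.0 CPM in Het pools. *serpind1*, heparin cofactor II, which inhibits thrombin, was at 3.33, 2.2 and 2.31 CPM in ZKO pools and 5.52, 4.54 and 5.78 CPM in Het pools (log2 fold change -1.02, SE 0.35, adjusted p = 0.557). In all 6 genes no ZKO pool reached the lowest Het pool, and *f2*, *fgb*, *fgg* and *plg* were called in the fit of 6 pools.

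Of 37 other plasma protein and liver enzyme genes, 36 were lower, 33 of them without overlap, and the median log2 fold change was -0.85. *tfa*, transferrin, the iron carrier of plasma, was at 309, 314 and 258 CPM in ZKO pools, against 588, 613 and 567 CPM in Het pools (log2 fold change -1.0, SE 0.28, adjusted p = 0.5). *cp*, ceruloplasmin, the copper-carrying ferroxidase, was at 29.8, 31.8 and 36.8 CPM in ZKO pools, against 75.7, 75.3 and 64.9 CPM in Het pools, and *serpina1*, the antitrypsin of plasma, at 135, 156 and 137 CPM in ZKO pools, against 270, 301 and 249 CPM in Het pools. The fetuins, carrier glycoproteins, were lower as well: *fetub* was at 362, 486 and 383 CPM in ZKO pools and 687, 742 and 672 CPM in Het pools, and *ahsg1* at 5.19, 5.00 and 4.66 CPM in ZKO pools and 9.99, 15.3 and 13.1 CPM in Het pools. These 5 genes were called in the fit of 6 pools, and *ahsg1* also in the fit without WT. *hnf4a*, a transcription factor of hepatocytes and enterocytes, had 5.6, 9.09 and 7.84 CPM in ZKO pools, against 15.6, 12.3 and 14.2 CPM in Het pools (log2 fold change -0.90, SE 0.23, adjusted p = 0.332). *tat*, tyrosine aminotransferase of the liver, had the smallest p of this list, with 27.3, 30.0 and 31.1 CPM in ZKO pools and 46.0, 45.9 and 34.3 CPM in Het pools (log2 fold change -0.51, SE 0.12, adjusted p = 0.303). *a1cf*, an RNA-binding partner of apolipoprotein B mRNA editing, was at 5.37, 9.55 and 8.55 CPM in ZKO pools and 20.1, 18.5 and 18.3 CPM in Het pools.

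Apolipoproteins, which carry lipids in plasma and in zebrafish are made by liver, intestine and yolk syncytial layer, were lower in 16 of 20 genes, 7 of them without overlap, with a median log2 fold change of -0.39. *apoa2*, of high-density lipoprotein, was at 899, 916 and 980 CPM in ZKO pools, against 1405, 1627 and 1228 CPM in Het pools (log2 fold change -0.61, SE 0.21, adjusted p = 0.615). *apom*, the carrier of sphingosine-1-phosphate, was at 36.5, 37.6 and 37.9 CPM in ZKO pools, against 67.5, 68.1 and 53.6 CPM in Het pools, and was called in the fit of 6 pools. In both genes the ZKO pools lay within a narrow band below every Het pool.

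**Figure D2:**
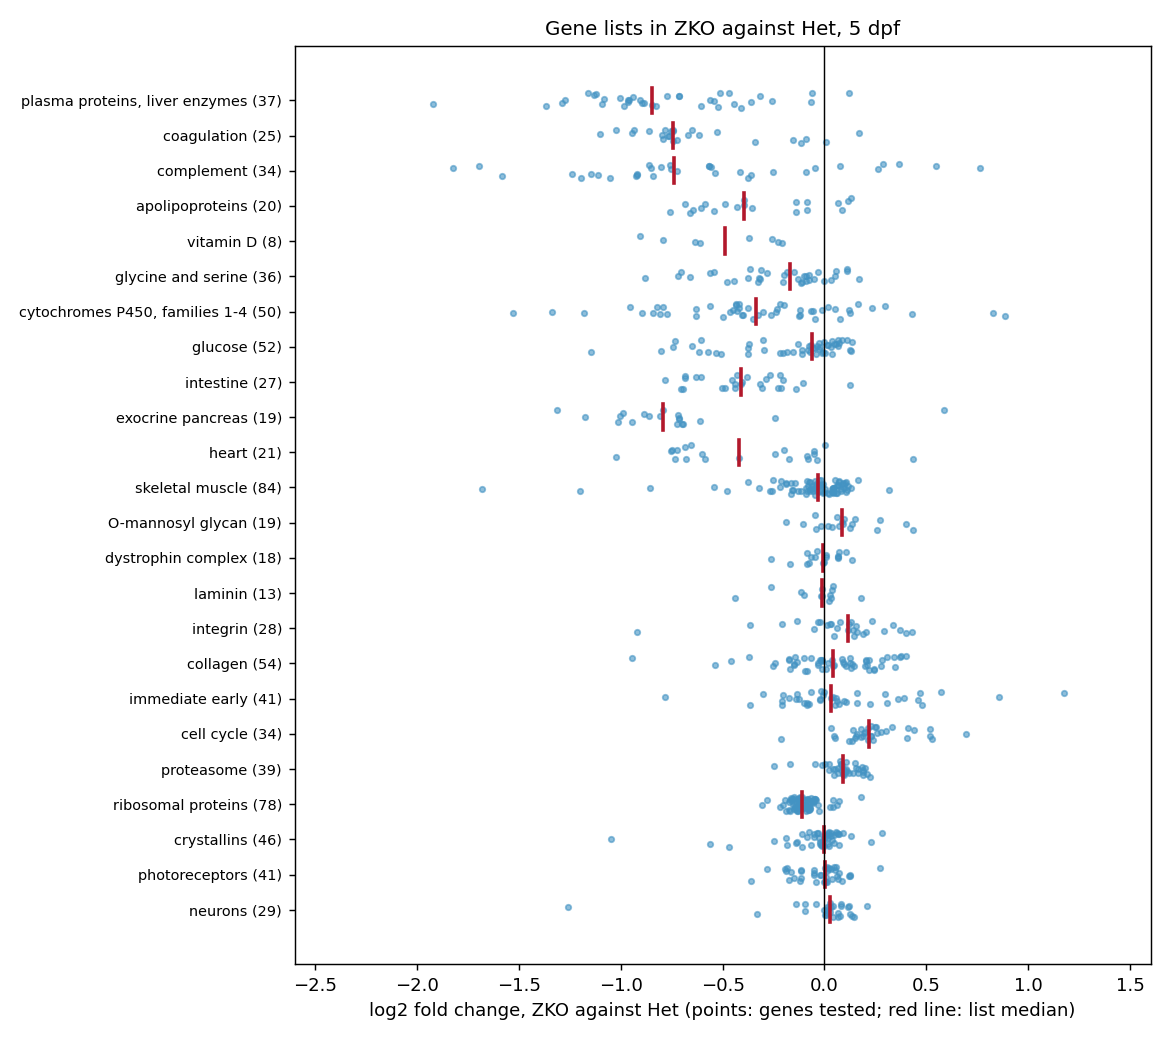
Log2 fold change of ZKO against Het (x axis) for the tested genes of 24 lists (rows, with the number of genes tested in brackets), as points for genes and a red line for the median. The liver lists at the top centre left of 0, with medians of -0.85 to -0.39, and the O-mannosyl glycan, dystrophin complex and laminin lists centre within 0.1 of 0.

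Metabolic genes of liver and kidney had smaller differences. Of 50 cytochrome P450 genes of families 1 to 4, 39 were lower, 17 of them without overlap, with a median log2 fold change of -0.34. *cyp1a*, the xenobiotic-oxidizing enzyme induced through the aryl hydrocarbon receptor, was at 15.4, 20.2 and 22 CPM in ZKO pools, against 37.9, 38.1 and 31.3 CPM in Het pools, and at 68.8, 59.9 and 41.5 CPM in WT pools (ZKO against Het log2 fold change -0.89, SE 0.16, adjusted p = 0.138). The ZKO pools were lowest and the WT pools highest, with no overlap among the 3 groups. *cyp1a* was called by DESeq2, the 6-pool fit and the fit without WT alike, as were *gda*, *slco1d1* and *tdo2a*, described below. *cyp4v7*, of a family that oxidizes fatty acids, was at 4.73, 4.60 and 5.48 CPM in ZKO pools, against 9.42, 9.78 and 9.5 CPM in Het pools (log2 fold change -0.95, SE 0.22, adjusted p = 0.217). *cyp2ad2* was at 16.0, 19.6 and 16.1 CPM in ZKO pools, against 38.1, 39.3 and 40.0 CPM in Het pools, and was called in the 6-pool fit and without WT.

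All 8 vitamin D genes were below Het, 3 without overlap, and their median log2 fold change was -0.49. *gc*, the vitamin D-binding protein made by the liver, was at 46.3, 50.4 and 49.5 CPM in ZKO pools, against 100, 98.8 and 75.2 CPM in Het pools (log2 fold change -0.91, SE 0.33, adjusted p = 0.622). *cyp2r1*, the 25-hydroxylase, was at 4.61, 6.89 and 3.84 CPM in ZKO pools, against 10.6, 7.35 and 8.65 CPM in Het pools (log2 fold change -0.79, SE 0.29, adjusted p = 0.611). Only *gc* was called in the fit of 6 pools.

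Glycine, serine and glyoxylate metabolism had 30 of 36 genes lower, 17 without overlap, with a median log2 fold change of -0.17. *dmgdh*, which turns dimethylglycine into sarcosine, was at 49.0, 48.7 and 51.3 CPM in ZKO pools, against 63.2, 61.3 and 60.6 CPM in Het pools (log2 fold change -0.31, SE 0.08, adjusted p = 0.305). *agxtb*, alanine-glyoxylate aminotransferase, was at 61.6, 64.8 and 80.1 CPM in ZKO pools, against 149, 139 and 91.9 CPM in Het pools (log2 fold change -0.88, SE 0.21, adjusted p = 0.393). The 2 genes differed in spread, with the *dmgdh* pools of each group within a few CPM and Het pool 3 well below the other Het pools for *agxtb*. *grhprb*, glyoxylate reductase, was at 39.8, 44.8 and 49.6 CPM in ZKO pools, against 79.7, 78.5 and 61.1 CPM in Het pools, and was called in the 6-pool fit and without WT.

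Genes of glucose metabolism leaned lower by a small median: 36 of 52 were lower, and the median log2 fold change was -0.06. Without overlap 13 were lower and 0 higher. The summed level of the list was 11134, 11173 and 10847 CPM in ZKO pools, against 12387, 12253 and 11487 CPM in Het pools, without overlap. The lower genes included enzymes that release glucose from the liver. *g6pca.1* and *g6pca.2* encode glucose-6-phosphatase: *g6pca.1* was at 2.68, 4.19 and 4.35 CPM in ZKO pools, against 8.15, 10.1 and 6.79 CPM in Het pools (log2 fold change -1.14, SE 0.34, adjusted p = 0.5), and *g6pca.2* at 64.4, 82.7 and 64.2 CPM in ZKO pools, against 117, 112 and 125 CPM in Het pools. *slc37a4a*, which carries glucose-6-phosphate to that enzyme and is not on the list, was at 7.53, 9.24 and 7.27 CPM in ZKO pools, against 17.3, 15.0 and 13.9 CPM in Het pools. *pck2*, a phosphoenolpyruvate carboxykinase of gluconeogenesis, was at 47.9, 67.1 and 54.1 CPM in ZKO pools, against 89.7, 79.4 and 88.0 CPM in Het pools (log2 fold change -0.60, SE 0.19, adjusted p = 0.548). All 4 had every ZKO pool below every Het pool.

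Among single metabolic enzymes called by DESeq2, the 6-pool fit or both, *tdo2a*, tryptophan 2,3-dioxygenase, was at 15.5, 13.7 and 16.0 CPM in ZKO pools, against 28.7, 36.2 and 23.2 CPM in Het pools (log2 fold change -0.96, SE 0.23, adjusted p = 0.349). *miox*, the myo-inositol oxygenase of kidney, was at 11.3, 18.8 and 14.8 CPM in ZKO pools, against 32.1, 37.5 and 28.7 CPM in Het pools (log2 fold change -1.12, SE 0.23, adjusted p = 0.29), and *gda*, guanine deaminase, at 14.5, 21.9 and 20.3 CPM in ZKO pools, against 39.6, 33.8 and 36.8 CPM in Het pools (log2 fold change -0.96, SE 0.19, adjusted p = 0.217). *slc22a2*, an organic cation transporter, was at 16.7, 20.1 and 17.7 CPM in ZKO pools, against 29.5, 25.5 and 27.2 CPM in Het pools (log2 fold change -0.59, SE 0.12, adjusted p = 0.138), a fold change below the threshold. *slco1d1*, an organic anion transporter, was at 21.7, 25.9 and 26.8 CPM in ZKO pools, against 43.2, 43.3 and 37.3 CPM in Het pools. *leg1.2*, of a liver-enriched secreted protein family, was at 0.992, 0.817 and 1.49 CPM in ZKO pools, against 3.63, 5.24 and 3.72 CPM in Het pools (log2 fold change -1.92, SE 0.49, adjusted p = 0.378). In all of these genes the groups did not overlap.

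Lipid genes outside plasma carriers differed less by the median of their lists. Of 34 cholesterol and lipid synthesis genes 20 were lower, 2 without overlap, near the 6.39% of all genes, with a median log2 fold change of -0.04. *fads2*, the fatty acid desaturase, was at 14.5, 12.1 and 14.6 CPM in ZKO pools, against 19.1, 21.3 and 23.6 CPM in Het pools (log2 fold change -0.64, SE 0.18, adjusted p = 0.396). Of 31 genes of the fatty acid binding list 22 were lower, 7 without overlap, with a median of -0.08. Single genes of that list differed more: *lipca*, hepatic lipase, was at 0.467, 0.511 and 0.717 CPM in ZKO pools, against 1.26, 2.65 and 0.905 CPM in Het pools (log2 fold change -1.48, SE 0.50, adjusted p = 0.514).

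In other digestive organs, 26 of 27 intestinal genes were lower, 13 of them without overlap, with a median log2 fold change of -0.41. *chia.3*, a chitinase, was at 1.4, 2.55 and 2.36 CPM in ZKO pools, against 3.58, 3.51 and 3.12 CPM in Het pools, and *slc10a2*, the ileal bile acid transporter, overlapped at 3.68, 7.25 and 6.56 CPM in ZKO pools and 9.10, 7.08 and 8.75 CPM in Het pools. Of 19 genes of the exocrine pancreas, 18 were lower with a median of -0.79, but none without overlap, and Het pool 3 was low: *prss59.2*, a trypsin, was at 356, 243 and 262 CPM in ZKO pools, against 931, 896 and 308 CPM in Het pools. The sum over pancreatic markers was 1865, 1304 and 1208 CPM in ZKO pools, against 3189, 3179 and 1331 CPM in Het pools and 1695, 2504 and 550 CPM in WT pools.

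Skeletal muscle genes were close to Het as a group. Of 84 skeletal muscle genes, 52 were lower and 32 higher, and 7 were lower without overlap, near the 6.39% of all genes. Their median log2 fold change was -0.03. The summed level of 7 abundant muscle markers was 71737, 71897 and 76355 CPM in ZKO pools, against 75808, 72069 and 71298 CPM in Het pools, with overlap. Of the fast troponin I genes, 2 copies stood apart. *tnni2b.1*, which encodes the inhibitory subunit of the fast fibre troponin complex, was at 16.9, 19.7 and 10.7 CPM in ZKO pools, against 38.9, 40.2 and 29.3 CPM in Het pools (log2 fold change -1.20, SE 0.19, adjusted p = 0.101). *tnni2a.1* was at 6.24, 6.13 and 4.10 CPM in ZKO pools, against 20.4, 22.2 and 10.1 CPM in Het pools (log2 fold change -1.68, SE 0.35, adjusted p = 0.303). Both were called by DESeq2 and not by the fit of 6 pools, and both have close copies with which reads may be shared. The pools overlapped in the 4 other copies on the list, with log2 fold changes of -0.48 for *tnni2a.2*, 0.10 for *tnni2a.3*, 0.13 for *tnni2a.4* and -0.02 for *tnni2b.2*. WT pools were higher still in *tnni2b.1*, at 58.5, 55.5 and 42.2 CPM, and ZKO against WT, which shares the ZKO pools, had a log2 fold change of -1.73 (adjusted p = 0.000782). *mybpc2a*, the fast myosin-binding protein C, was at 15.0, 11.9 and 13.7 CPM in ZKO pools, against 20.4, 22 and 16.6 CPM in Het pools (log2 fold change -0.54, SE 0.12, adjusted p = 0.213). *foxo1a*, a transcription factor of muscle atrophy and metabolism, was at 24.7, 31.9 and 29.0 CPM in ZKO pools, against 46.4, 34 and 34.7 CPM in Het pools (log2 fold change -0.42, SE 0.14, adjusted p = 0.5).

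Heart genes were lower as a group: 19 of 21 were below Het, 8 of them without overlap, and the median log2 fold change was -0.42. *myl4*, an essential myosin light chain of the atrium in mammals, was at 15.1, 12.6 and 11.1 CPM in ZKO pools, against 22.7, 23.8 and 18.8 CPM in Het pools (log2 fold change -0.75, SE 0.14, adjusted p = 0.101). It was called by DESeq2 and by the fit of 6 pools. *myl7*, the regulatory light chain that marks cardiomyocytes, was at 8.93, 7.35 and 8.04 CPM in ZKO pools, against 11.8, 16.9 and 11.9 CPM in Het pools (log2 fold change -0.74, SE 0.19, adjusted p = 0.346). The sum over 5 heart markers was 93.9, 96.7 and 96.5 CPM in ZKO pools, against 115, 114 and 106 CPM in Het pools, so the marker set as a whole was lower by a ratio of 0.857 (two-sided exact permutation test, p = 0.1). WT pools had 147, 129 and 108 CPM, with WT pool 3 within the range of the Het pools.

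Genes of matrix and its receptors gave some of the smallest p-values. *itga10*, a collagen-binding integrin subunit, was at 8.05, 10.3 and 14.3 CPM in ZKO pools, against 22.7, 22.2 and 17.3 CPM in Het pools and 29.5, 35.5 and 31.1 CPM in WT pools (ZKO against Het log2 fold change -0.92, SE 0.17, adjusted p = 0.101). The 3 genotypes did not overlap, and ZKO was lowest. The integrin list as a whole did not share this: of its 28 genes, *itga10* included, 21 were higher in ZKO, with a median of 0.12. Without overlap 2 were lower, *itga10* and *itga3a* (log2 fold change -0.37, SE 0.20, adjusted p = 0.738), and 2 higher. Of the higher ones, *itgb5*, a vitronectin receptor subunit, was at 21.1, 21.1 and 18.5 CPM in ZKO pools, against 16.7, 15.3 and 14.2 CPM in Het pools (log2 fold change 0.40, SE 0.12, adjusted p = 0.423). Without ZKO pool 3, the highest of the ZKO pools for *itga10*, that gene was the single call of the 15-pool design. *pcolceb*, which enhances the processing of procollagen, was at 1.58, 0.970 and 1.18 CPM in ZKO pools, against 4.10, 4.38 and 3.17 CPM in Het pools (log2 fold change -1.65, SE 0.31, adjusted p = 0.101). *mia*, a small secreted protein of cartilage, was at 3.62, 3.37 and 2.2 CPM in ZKO pools, against 6.89, 8.43 and 5.58 CPM in Het pools (log2 fold change -1.19, SE 0.22, adjusted p = 0.101). Of 54 collagen genes 30 were higher and 24 lower, 11 higher and 4 lower without overlap, where 5.71% of all genes were higher and 6.39% lower. The summed level of the collagen list was higher in ZKO, at 9485, 9468 and 10043 CPM in ZKO pools, against 9315, 8628 and 8501 CPM in Het pools, without overlap (ratio 1.1, two-sided exact permutation test, p = 0.1). The 2 genes of smallest p were lower and belong to skeletal tissue: *col10a1a*, of hypertrophic cartilage and of bone-forming cells in fish, was at 12.1, 10.5 and 7.79 CPM in ZKO pools, against 19.2, 24.4 and 14.7 CPM in Het pools (log2 fold change -0.94, SE 0.27, adjusted p = 0.476), and *col9a1a*, of cartilage, at 80.6, 63.7 and 56.1 CPM in ZKO pools, against 93.2, 93.7 and 72.5 CPM in Het pools. The sum over cartilage and bone markers overlapped, at 1047, 840 and 993 CPM in ZKO pools and 998, 1090 and 797 CPM in Het pools.

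Among the 10 lower genes of smallest p, *cdab*, a cytidine deaminase of pyrimidine salvage, ranked first, at 3.85, 3.78 and 5.79 CPM in ZKO pools, against 9.84, 8.21 and 9.65 CPM in Het pools and 14.8, 10.7 and 12.1 CPM in WT pools (ZKO against Het log2 fold change -1.04, SE 0.19, adjusted p = 0.101). *zgc:66156* was at 35.0, 38.5 and 29.0 CPM in ZKO pools, against 76.9, 70.3 and 50.0 CPM in Het pools (log2 fold change -0.94, SE 0.17, adjusted p = 0.168), and was the single call of the 15-pool design without Het pool 3, the lowest Het pool. *CR936442.1* was at 9.57, 6.59 and 9.42 CPM in ZKO pools, against 16.6, 16.4 and 12.7 CPM in Het pools (log2 fold change -0.84, SE 0.17, adjusted p = 0.191). None of the 10 had overlapping pools, and of the 10 only *slc22a2* was called by neither DESeq2 nor the 6-pool fit.

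**Figure D3:**
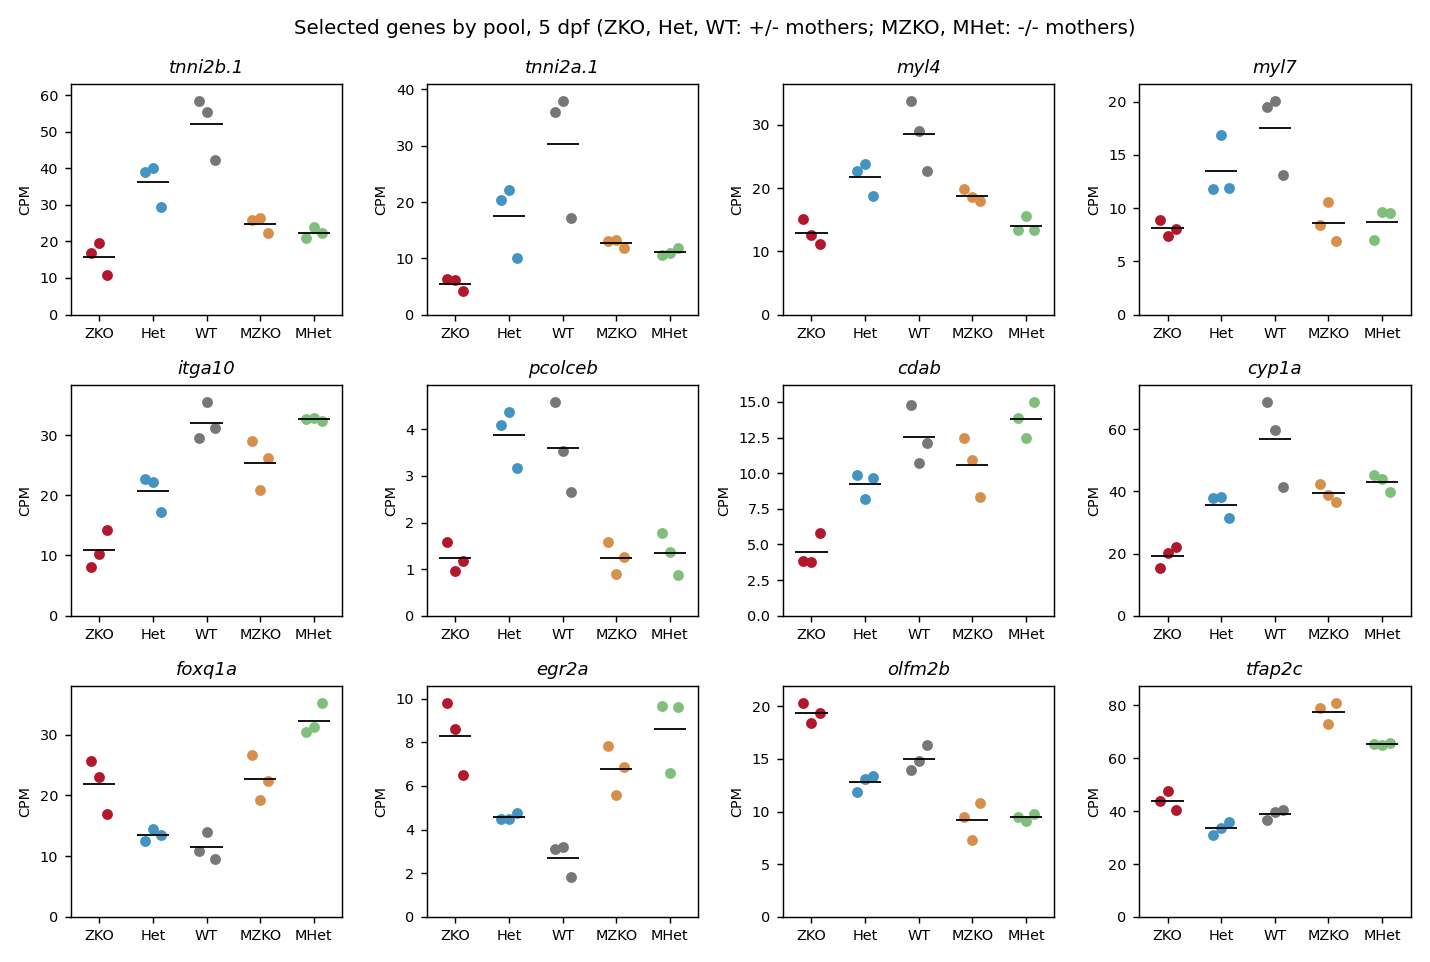
CPM per pool (y axis) of 8 genes lower and 4 genes higher in ZKO than in Het, in ZKO, Het, WT, MZKO and MHet pools at 5 dpf (x axis), with points for pools and a line for the mean. In each panel the ZKO and Het pools do not overlap, and in *tnni2b.1*, *itga10*, *cdab* and *cyp1a* the WT pools lie above the Het pools.

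Higher genes had smaller fold changes, and no fit called any. *tfap2c*, a transcription factor of epidermis and neural crest, was at 43.9, 47.5 and 40.5 CPM in ZKO pools, against 30.9, 33.6 and 36 CPM in Het pools (log2 fold change 0.39, SE 0.08, adjusted p = 0.213). *olfm2b*, a secreted olfactomedin, was at 20.3, 18.4 and 19.4 CPM in ZKO pools, against 11.9, 13.1 and 13.4 CPM in Het pools (log2 fold change 0.60, SE 0.13, adjusted p = 0.213). *foxq1a*, a forkhead transcription factor, was at 25.6, 23.0 and 17.0 CPM in ZKO pools, against 12.5, 14.4 and 13.5 CPM in Het pools (log2 fold change 0.70, SE 0.15, adjusted p = 0.214). The groups did not overlap in these genes, and ZKO pool 3 was the ZKO pool closest to Het for *foxq1a*. *samhd1*, which breaks down deoxynucleotides, was at 3.73, 3.93 and 4.25 CPM in ZKO pools, against 2.16, 2.38 and 1.76 CPM in Het pools, while WT pools had 3.88, 3.05 and 3.24 CPM, nearer to ZKO than to Het. *tmprss3a*, a membrane serine protease, was at 22, 16.2 and 15.8 CPM in ZKO pools, against 10.9, 11.6 and 11.5 CPM in Het pools, and *thy1*, a cell surface glycoprotein, at 23.9, 20.9 and 20.2 CPM in ZKO pools, against 14.7, 16.3 and 15.2 CPM in Het pools. *ngs*, expressed in the notochord, overlapped at 349, 235 and 284 CPM in ZKO pools and 238, 195 and 181 CPM in Het pools. *btr30*, of a fish family of TRIM-like genes, had a log2 fold change of 0.56 without overlap of the pools, and *CR788316.4* was at 24.7, 18.4 and 19.2 CPM in ZKO pools, against 15.3, 10.8 and 15.1 CPM in Het pools. In both genes the WT pools lay above the Het pools and overlapped the ZKO pools, at 11.6 to 13.8 CPM of *btr30* and 18.8 to 23.2 CPM of *CR788316.4*.

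Immediate early genes are induced within minutes of a stimulus, and many of them encode transcription factors. The list was divided evenly, with 21 of 41 higher and 20 lower. At an unadjusted p under 0.05, 8 were higher and 1 lower, where 3.14% of all genes were higher and 4.02% lower. *egr2a* was at 9.80, 8.63 and 6.51 CPM in ZKO pools, against 4.47, 4.49 and 4.78 CPM in Het pools and 3.11, 3.21 and 1.81 CPM in WT pools (ZKO against Het log2 fold change 0.86, SE 0.21, adjusted p = 0.305). The 3 genotypes did not overlap, in the order ZKO, Het, WT from high to low, and ZKO against WT had a log2 fold change of 1.61 (adjusted p = 0.000782). The AP-1 subunit genes *junba*, *junbb* and *fosab* had the same order of group means, and ZKO and Het overlapped in *junbb* and *fosab* but not in *junba*. Other AP-1 genes of the list went both ways between ZKO and Het, all with overlap. Log2 fold changes were -0.37 for *fosb*, -0.21 for *fosaa* and -0.02 for *jund*. They were 0.16 for *jun*, 0.06 for *fosl2*, 0.05 for *fosl1a* and 1.18 (SE 0.78) for *fosl1b*. *junba* was at 51.6, 46.1 and 34.3 CPM in ZKO pools, against 33.0, 33.5 and 29.5 CPM in Het pools (log2 fold change 0.46, SE 0.14, adjusted p = 0.5), and *junbb* at 175, 159 and 125 CPM in ZKO pools, against 96.2, 126 and 109 CPM in Het pools (log2 fold change 0.47, SE 0.12, adjusted p = 0.349). *fosab* was at 95.8, 88.5 and 60.8 CPM in ZKO pools, against 44.8, 68.1 and 62.9 CPM in Het pools (log2 fold change 0.48, SE 0.18, adjusted p = 0.639). ZKO pool 3 was the lowest ZKO pool in *egr2a*, *junba*, *junbb* and *fosab*. *socs3a*, a feedback inhibitor of cytokine signalling, was the lower one, at 22.7, 23.3 and 22.5 CPM in ZKO pools, against 45.6, 39.8 and 32.6 CPM in Het pools (log2 fold change -0.78, SE 0.17, adjusted p = 0.217), and was called by DESeq2 and in the fit of 6 pools. WT pools lay between, at 29.1 to 31.7 CPM. *b3gat1b*, a glucuronyltransferase of the HNK-1 epitope, was at 6.54, 6.28 and 5.48 CPM in ZKO pools, against 4.47, 4.70 and 5.78 CPM in Het pools (log2 fold change 0.29, SE 0.20, adjusted p = 0.793), with overlap.

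Cell cycle genes leaned the other way from liver genes. Of 34, 33 were above Het, 7 without overlap. The median log2 fold change was 0.22, and none was called. *cdc20*, an activator of the anaphase-promoting complex, was at 14.4, 12.7 and 11.0 CPM in ZKO pools, against 7.31, 10.9 and 8.39 CPM in Het pools (log2 fold change 0.52, SE 0.15, adjusted p = 0.47), and *ccne2*, a cyclin of the start of DNA replication, overlapped at 13.7, 11.2 and 9.37 CPM in ZKO pools and 7.15, 7.08 and 9.60 CPM in Het pools. WT pools had 10.5, 13.7 and 11.2 CPM of *cdc20*, and the summed level of the list was 1253, 1028 and 1053 CPM in ZKO pools, 926, 1039 and 924 CPM in Het pools and 1178, 1034 and 1094 CPM in WT pools, so the sums overlapped and ZKO pool 1 was highest. Proteasome subunits were higher in 35 of 39 with a median of 0.09, but only 2 without overlap, near the 5.71% of all genes. *psma3*, 1 of these 2, was at 82.0, 66.9 and 64.3 CPM in ZKO pools, against 62.7, 59.8 and 59.8 CPM in Het pools. Ribosomal protein genes were lower in 72 of 78 with a median of -0.11, but only 3 without overlap, below the 6.39% of all genes. *rpl7* was at 819, 1123 and 826 CPM in ZKO pools, against 1217, 1109 and 1097 CPM in Het pools, with overlap. The summed levels of the proteasome and ribosomal lists overlapped between ZKO and Het pools. *tp63*, the transcription factor of basal epidermis, was at 40.7, 30.0 and 32.9 CPM in ZKO pools, against 29.4, 23.2 and 27.1 CPM in Het pools (log2 fold change 0.38, SE 0.12, adjusted p = 0.499). The epidermal gene of next smallest p, *krt93*, was lower, at 2.1, 1.63 and 1.13 CPM in ZKO pools, against 2.63, 3.13 and 2.81 CPM in Het pools (log2 fold change -0.82, SE 0.30, adjusted p = 0.572). Neither gene had overlapping pools.

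Genes of the tissues that dystroglycanopathies affect beside muscle were close to Het. The median log2 fold changes were -0.0043 over 46 crystallin genes of the lens, 0.0045 over 41 photoreceptor genes and 0.03 over 29 neuron genes, and 3, 5 and 3 genes of these lists did not overlap in either direction, where 5.71% of all genes were higher and 6.39% lower without overlap. Of 18 myelin genes 7 were higher and 11 lower, and of 29 immune genes 12 were higher and 17 lower, with medians of -0.03 and -0.01. Ionocyte genes, of the ion-transporting skin and kidney cells, differed more and were lower in 32 of 41 with a median of -0.15. Without overlap 8 of them were lower and 0 higher. The summed level of the ionocyte list was 2001, 2175 and 2146 CPM in ZKO pools, against 2408, 2197 and 2256 CPM in Het pools, without overlap. Epidermal genes were higher in 18 of 28 with a median of 0.12, but without overlap 2 were higher and 5 lower. Heat shock genes were higher in 29 of 48, 8 of them without overlap, with a median of 0.05, and genes of oxidative phosphorylation were lower in 59 of 89 with a median of -0.03. None of these was called.

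The same own genotypes were compared with -/- mothers in MZKO against MHet, which shares no pool with ZKO against Het. There the 15-pool fit called 145 genes up (0.584%) and 75 down (0.302%). In ZKO against Het, 78 of the 145 genes were higher and 67 lower (median log2 difference 0.02). Of the 75 genes, 27 were higher and 48 lower (median -0.08). None of either set was called. Across the 24846 genes the log2 fold changes of the 2 comparisons had Pearson's r = 0.02 and Spearman's rho = -0.002, given as a description across genes, which are not independent replicates. The median absolute log2 fold change was 0.13 in ZKO against Het and 0.21 in MZKO against MHet.

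**Figure D4:**
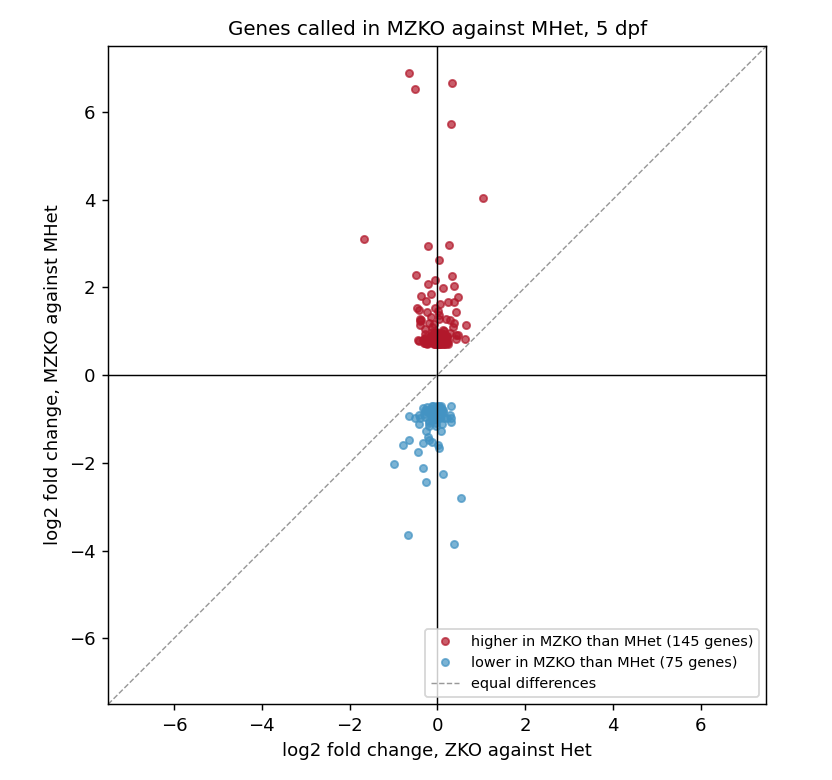
Log2 fold change of ZKO against Het (x axis) and of MZKO against MHet (y axis) for the 145 genes called up (red) and the 75 called down (blue) in MZKO against MHet, with a dashed line for equal differences. The points stand in a narrow band around 0 on the x axis, with medians of 0.02 and -0.08, and apart from 0 on the y axis.

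The direct test of the difference between the mothers, (MZKO minus MHet) minus (ZKO minus Het), called 47 genes up and 30 down, 0.31% of the genes tested. *trim63a*, a ubiquitin ligase of muscle atrophy, and *sgcd*, δ-sarcoglycan of the dystrophin complex, were chosen after their values were seen, to show genes that differed with -/- mothers. *trim63a* was at 79.0, 90.9 and 66.2 CPM in ZKO pools, against 87.4, 87.5 and 81.4 CPM in Het pools, with overlap, and at 28.0, 39 and 35.3 CPM in MZKO pools, against 98.2, 104 and 93.2 CPM in MHet pools. *sgcd* was at 69.4, 65.7 and 68.6 CPM in ZKO pools, against 65.7, 68.7 and 78.6 CPM in Het pools, with overlap, and at 86.2, 81.1 and 77.0 CPM in MZKO pools, against 38.0, 54.5 and 54.0 CPM in MHet pools. The ZKO against Het log2 fold changes were -0.12 (SE 0.16, adjusted p = 0.925) for *trim63a* and -0.06 (SE 0.11, adjusted p = 0.942) for *sgcd*, and the differences between the comparisons were -1.41 (adjusted p = 0.00632) and 0.80 (adjusted p = 0.00664).

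Among the genes of smallest p in ZKO against Het, *myl4* and *foxq1a* passed the test of the difference, with opposite directions under the 2 mothers. That test reuses the ZKO and Het pools by which these genes were picked, so passing it is no independent support. Of 17 genes called by it with an unadjusted p under 0.05 in ZKO against Het, 16 had opposite directions. Picking genes by a large difference between the comparisons favours opposite directions, so this count does not show a reversal under the 2 mothers. *myl4* was at 19.8, 18.6 and 18.0 CPM in MZKO pools, against 13.3, 15.5 and 13.4 CPM in MHet pools, the reverse of its order in ZKO and Het (difference 1.17, adjusted p = 0.00324). *foxq1a* was at 26.6, 19.3 and 22.3 CPM in MZKO pools, against 30.4, 31.3 and 35.2 CPM in MHet pools (difference -1.20, adjusted p = 0.00505). *gap43*, a growth cone protein of neurons, was at 143, 117 and 117 CPM in ZKO pools, against 101, 118 and 107 CPM in Het pools, and at 63.1, 61.7 and 65.1 CPM in MZKO pools, against 98.0, 99.2 and 88.1 CPM in MHet pools (difference -0.80, adjusted p = 0.00203). For *tnni2b.1* the MZKO pools had 26, 26.3 and 22.4 CPM, against 21.0, 23.9 and 22.3 CPM in MHet pools, with a difference of 1.35 that did not pass (adjusted p = 0.0183). For *itga10* the MZKO pools had 29.0, 20.8 and 26.2 CPM, against 32.6, 32.9 and 32.4 CPM in MHet pools, lower as in ZKO against Het but not called. Over the 4 liver lists the median log2 fold change was -0.19 in MZKO against MHet, beside -0.68 in ZKO against Het. By list, MZKO against MHet had medians of 0.11 for complement, -0.13 for coagulation, -0.48 for apolipoproteins and -0.37 for the other plasma proteins and liver enzymes.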

How the data were processed

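Poly(A) RNA of pools of 4 to 6 whole larvae was sequenced from directional libraries. The authors trimmed reads (Trim Galore), aligned them to GRCz11 (danRer11) with HISAT2, and counted them on the Lawson annotation with featureCounts, as the submitters' processing notes name. The deposited values are raw counts per gene, without normalization. How featureCounts treated strand and multi-mapped reads is not given in the sources used here, so near-identical, overlapping and antisense genes are uncertain.

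Groups and replicate numbers came from the sample labels. Counts of the 15 pools of 5 dpf were filtered with filterByExpr, scaled by TMM and fitted with edgeR 4.0.16 (R 4.3.3; robust quasi-likelihood, contrasts, Benjamini-Hochberg adjustment over all genes tested). Genes past both thresholds (adjusted p 0.01, log2 fold change 0.7 in either direction) were DEGs. Standard errors were derived from the fold change and the square root of its F statistic. Alternatives were DESeq2 1.42.0, its size factors in edgeR, other filters, thresholds, pool sets, a replicate block and each pool left out. The 15-pool edgeR fit was tested on simulated data, with outcomes not reported here. The 10 dpf pools entered only a fit of all 21 pools. Named genes were the 10 of smallest p in each direction, genes from the 2 of smallest p of a list, and the O-mannosyl glycan genes. Not all of these list and glycan genes are reported here, so those given for a list are a selection. Genes the study names for ZKO (*junba*, *junbb*, *fosab*, *egr2a*, *b3gat1b*) were also named. Genes called by an alternative and other members of their families were chosen after their values were seen. The comparison and the gene lists were chosen with earlier results of these data known.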

Additional observations from a re-analysis of the deposited data

Results flagged for a closer look

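The interaction test of the 15-pool fit (edgeR quasi-likelihood, adjusted p under 0.01) called 77 genes, 0.31% of all genes tested. Of the genes named in the text, 5 were among these, so they are a selection and not a ranking. *trim63a* and *sgcd* were chosen after their values were seen, and *myl4* and *foxq1a* by their p in ZKO against Het. In these 5 genes the difference between own genotypes was another one with a -/- mother than with a +/- mother. The log2 difference, (MZKO minus MHet) minus (ZKO minus Het), was 1.17 for *myl4*, -1.20 for *foxq1a*, -0.80 for *gap43*, 0.80 for *sgcd* and -1.41 for *trim63a*. In *myl4* and *foxq1a* the 2 comparisons had opposite directions without overlap of the pools in either. In *sgcd* and *trim63a* the ZKO and Het pools overlapped. No group had more than 3 pools, so single pools could not be tested as outliers.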

How the results depend on the processing

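The count of 0 DEGs in ZKO against Het was also 0 with DESeq2 size factors in edgeR, with no filter on low counts, with at least 10 counts in every pool, with all 21 pools, with the 9 pools of +/- mothers, at an adjusted p under 0.05, and without any fold change threshold. It was 16 with the DESeq2 Wald test, 51 with only the 6 ZKO and Het pools and 7 without the WT pools, a setting chosen after seeing the data. The cause of these differences was not tested. With 1 pool left out it lay between 0 and 1, with *itga10* called without ZKO pool 3 and *zgc:66156* without Het pool 3. The replicate numbers share no stated origin, and deviations of same-numbered ZKO and Het pools had correlations of -0.0773, -0.054 and 0.0011, so the numbers do not pair the pools. With a replicate block, 1 gene (*tnni2b.1*) was called.

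The interaction count of 77 was 273 at an adjusted p under 0.05, 197 with DESeq2, 127 with no filter, 43 with all 21 pools, 123 without WT and 86 with the replicate block. With 1 pool left out it lay between 33 (without Het pool 3) and 84. It was 34 and 50 without MZKO pools 1 and 2, 36 and 47 without MHet pools 1 and 2, and 46 without Het pool 1.

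Changes of sign were limited to genes with small differences when 1 pool was left out. The log2 fold change then ranged from -0.0447 to 0.0981 for *pomgnt1*, from -0.0201 to 0.0641 for *dag1*, from -0.0530 to 0.3977 for *tmem5*, from -0.4051 to 0.2783 for *dolk*, the dolichol kinase, and from -0.0219 to 0.1532 for *dpm2*. It ranged from -0.1375 to 0.1554 for *pomt2*, and from -0.1295 to 0.0073 for *sgcd*. It ranged from -0.0839 to 0.0118 for *jund* and from -0.1327 to 0.0307 for *tnni2b.2*. For *dpm1* it ranged from -0.0204 to 0.162. With a median standard error of 0.17 on the log2 scale, small differences were not detectable at this depth and number of pools.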
